A study of Mus musculus with 4 samples.

Results

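The small nucleolar and Cajal body RNAs of mouse thymocytes were taken as every gene symbol in the deposited expression tables that starts with Snord (box C/D), Snora (box H/ACA) or Scarna (Cajal body). They numbered 142 of 22730 symbols, of which 96 were box C/D, 37 box H/ACA and 9 Cajal body RNAs. For a symbol with several transcript rows, the row with the most reads over the 4 libraries was used. The 142 symbols lie at 122 distinct positions, since several symbols of the Snord116 cluster are listed at one place. Reads were found for 109 of them, and 102 passed edgeR's filter on low counts and were tested, made up of 60 box C/D, 33 box H/ACA and 9 Cajal body RNAs.

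RNA came from total thymocytes, the developing T cells of the thymus, of 2 mice labelled hnRNP L KO (KO 1 and KO 2) and 2 mice labelled wild type (WT 1 and WT 2), with 1 library per mouse. hnRNP L is an RNA-binding protein that regulates pre-mRNA splicing. All 4 mice are given the same mixed background, with CD45.1, C57BL/6, an LckCre transgene and the reporter allele Gt(ROSA)26Sortm4(ACTB-tdTomato,-EGFP)Luo. The Lck promoter drives Cre in T-lineage cells. No source used here says which of these mice carried Cre, or how old they were. Ribosomal RNA was depleted, the rest was cut with RNase III, and libraries were selected for 150 to 300 bp. The targeted gene Hnrnpl stood at 467 and 208 CPM (read counts scaled to library size, here with TMM factors) in KO 1 and KO 2, against 854 and 813 CPM in WT 1 and WT 2, a log2 fold change of -1.30 (SE 0.42) that did not pass the edgeR test (adjusted p = 0.486), and -1.26 without WT 1. All 10 thymocyte markers were present in every library, with summed levels of 17244 and 13491 CPM in KO 1 and KO 2, against 16956 and 16355 CPM in WT 1 and WT 2.

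Most of these RNAs are cut out of introns of other genes, called hosts, and are trimmed to their ends by exonucleases while bound by their proteins. Box C/D RNAs carry a C box and a D box near their ends, bind fibrillarin and guide 2′-O-methylation. Box H/ACA RNAs end in an ACA motif, bind dyskerin and guide pseudouridylation. Most targets of both are in ribosomal RNA, made in the nucleolus, while the Cajal body RNAs guide the same modifications in spliceosomal RNAs.

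The sequences of the RNAs on which the values below turn are shown first, from GENCODE M21 (GRCm38), with capitals for the last CTGA in the final 25 nt (D box) and for any NTGATGA in the first 25 nt (C box) of box C/D RNAs. Snord22 (chr19:8725866-8725991, plus strand) had the highest mean level per length over the 4 libraries, a rank that rests on WT 1. Snord32a (chr7:45127382-45127464), Snord33 (chr7:45126864-45126947), Snord34 (chr7:45126601-45126670) and Snord35a (chr7:45126346-45126435) lie on the minus strand in introns of 1 host, Rpl13a. Snord82 (chr1:86356261-86356330, minus strand) was the exception to the pattern shared by the other tested members.
Snord22: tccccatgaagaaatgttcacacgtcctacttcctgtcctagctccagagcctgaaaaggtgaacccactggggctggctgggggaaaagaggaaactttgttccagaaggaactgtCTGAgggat
Snord32a: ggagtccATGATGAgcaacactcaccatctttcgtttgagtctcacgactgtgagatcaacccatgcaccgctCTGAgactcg
Snord33: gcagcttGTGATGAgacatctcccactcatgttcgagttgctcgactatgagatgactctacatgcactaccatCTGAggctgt
Snord34: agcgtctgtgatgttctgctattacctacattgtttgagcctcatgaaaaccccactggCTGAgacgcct
Snord35a: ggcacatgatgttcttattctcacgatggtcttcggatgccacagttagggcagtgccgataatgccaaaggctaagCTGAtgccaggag
Snord82: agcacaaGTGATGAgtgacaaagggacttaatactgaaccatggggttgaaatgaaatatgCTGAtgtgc

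For the box H/ACA RNAs, capitals mark the last ACA in the final 10 nt. Snora26 (chr5:74093530-74093650, plus strand) and Snora7a (chr6:115807975-115808114, minus strand) had the highest mean levels per length in their class. Snora75 (chr1:86351169-86351301, minus strand) shares the host Ncl with Snord82.
Snora26: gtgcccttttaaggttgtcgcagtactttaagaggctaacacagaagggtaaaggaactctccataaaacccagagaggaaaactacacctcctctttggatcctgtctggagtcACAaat
Snora7a: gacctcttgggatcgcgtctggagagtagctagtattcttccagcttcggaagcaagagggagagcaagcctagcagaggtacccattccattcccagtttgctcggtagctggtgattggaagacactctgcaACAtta
Snora75: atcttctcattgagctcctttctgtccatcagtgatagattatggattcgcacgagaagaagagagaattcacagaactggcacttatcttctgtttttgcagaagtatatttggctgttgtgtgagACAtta

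The motifs followed the symbols' classes. Of 66 box C/D RNAs with a GENCODE sequence, 65 (98.5%) held CTGA in the final 25 nt and 40 (60.6%) held NTGATGA in the first 25 nt, searched on the RNA's own strand. Among all 141704 GENCODE transcripts of at least 40 nt, 11.7% and 0.847% held them. Of 35 box H/ACA RNAs, 33 (94.3%) held ACA in the final 10 nt, against 14.4% of all transcripts, and 0 held NTGATGA. Of the 9 Cajal body RNAs, 6 held CTGA, 4 held NTGATGA and 4 held ACA in those windows.

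WT 1 stood apart from the other 3 libraries in these RNAs, and fold changes of KO over WT are given also without it. The members took 1.26% of gene reads in KO 1 (exact Clopper-Pearson 95% interval 1.26 to 1.27%) and 0.582% in KO 2 (0.579 to 0.584%), against 5.45% in WT 1 (5.45 to 5.46%) and 0.793% in WT 2 (0.790 to 0.795%). WT 1 was thus the highest, and WT 2 lay between the KO libraries. Gene reads numbered 27548708 and 28677506 in KO 1 and KO 2, against 41775795 and 51544714 in WT 1 and WT 2, and the intervals cover counting error only. In bulk RNA, fewer cells of a type and less RNA per cell cannot be told apart.

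Both main classes had this order. Box C/D RNAs took 1.00% and 0.511% of gene reads in KO 1 and KO 2, against 4.29% and 0.620% in WT 1 and WT 2. Box H/ACA RNAs took 0.216% and 0.0554% in KO 1 and KO 2, against 1.03% and 0.139% in WT 1 and WT 2. Cajal body RNAs took 0.0436% and 0.0155% in KO 1 and KO 2, against 0.133% and 0.0343% in WT 1 and WT 2. The balance between the classes stood apart in KO 2: reads of box C/D over those of box H/ACA came to 4.64 in KO 1 and 9.23 in KO 2, against 4.17 in WT 1 and 4.47 in WT 2.

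**Figure D1:**
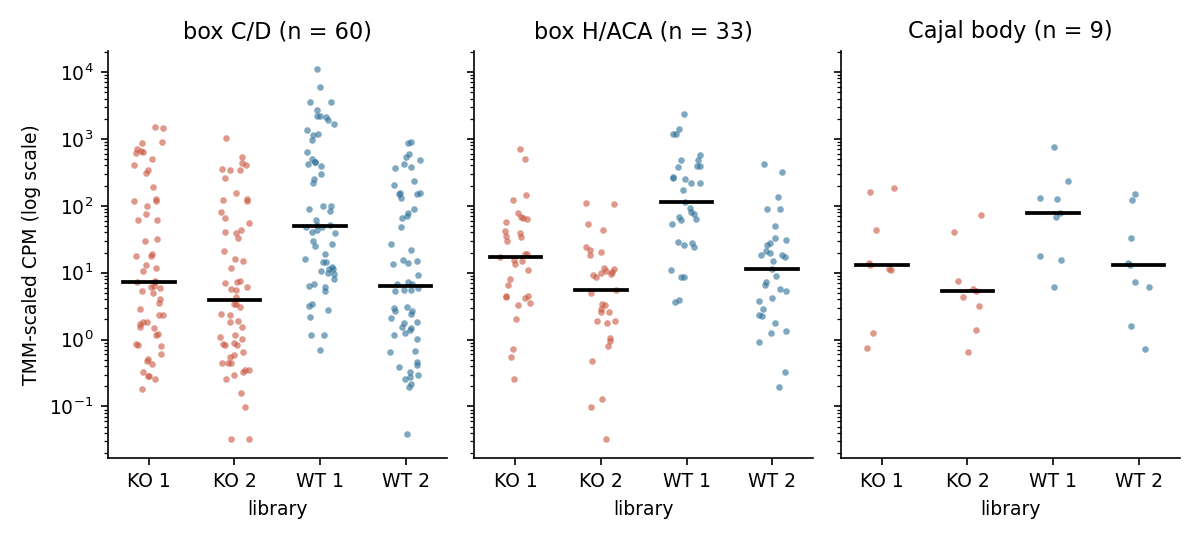
TMM-scaled CPM (log scale) of the 102 tested members in each library, 1 point per member, with KO libraries in red, WT libraries in blue and a black bar at the median of the class. The box C/D median was 7.30 and 3.86 CPM in KO 1 and KO 2, against 49.3 and 6.40 CPM in WT 1 and WT 2, and the median of WT 1 is the highest of the 4 in all 3 classes.

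The fit of KO against WT asked whether loss of hnRNP L went with a change in these RNAs, and no member passed it. Of the 102 tested members, 101 had a negative log2 fold change, with a median of -2.35, against 48.9% negative and a median of 0.0080 over all 13733 genes tested. At an adjusted p of 0.05 edgeR called 0 members in either direction and 0 lower, against 0.00728% and 0.0% of all genes. At an unadjusted p under 0.05 it called 2 members lower (Snord53 and Snord72), against 3.61% of all genes. DESeq2 called 2 members lower, Snord72 and Snora75, against 0.299% of all genes. Snora75 was scarce and did not pass the filter on low counts without WT 1. limma-voom called 0. The number of members at an unadjusted p under 0.05 depended on the fit. It was 0 with limma-voom, 26 with DESeq2 and 43 with edgeR without robust moderation. Both directions are counted there, and the share of all genes at that threshold was not counted for these fits. Calls under other settings are given in the last section. Both KO libraries lay below both WT libraries in 21 of the 102 members, and 21.4% of all genes did so, a share close to that of the members. None lay above in both, against 23.3% of all genes.

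Without WT 1 the negative shift was not seen. Of 98 members then tested, 49 had a negative and 49 a positive log2 fold change, and 47.3% of all genes were negative. The median for box C/D was -2.27 with all libraries and -0.049 without WT 1. For box H/ACA it was -2.66 with all libraries and 0.14 without WT 1, and for Cajal body RNAs -1.97 and -0.27. In a fit without 1 library a group holds 1 mouse, so such fits do not decide whether the genotypes differ. Only their effect sizes are given here. Without WT 2, members could pass the filter on low counts through WT 1 alone, and 108 were tested against 102 with all libraries. All 108 had a negative log2 fold change, with a median of -3.31. edgeR called 0 members without WT 1, with 1 at an unadjusted p under 0.05, and 0.00715% of all genes lower. Without WT 2, which leaves WT 1 as the only wild type, 22 of 108 members were called lower, against 0.279% of all genes, and that single WT library is assumed to vary as the KO libraries do. Without KO 1 edgeR called 0 members lower, with 2 at an unadjusted p under 0.05, against 1.57% of all genes called lower. Without KO 2 it called 0, with 0 at an unadjusted p under 0.05, against 0.0141% of all genes called lower.

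WT 1 was the highest library for 101 of 102 tested members, against 25.1% of all genes, and KO 2 was the lowest for 85, against 33.9% of all genes. The order from WT 1 through KO 1 and WT 2 down to KO 2 held for 65 members, and was not counted over all genes. The CPM of WT 1 over that of WT 2 had a median of 9.60 over the members, with quartiles of 5.59 and 14.4. KO 1 over WT 2 had a median of 1.40, and KO 2 over WT 2 of 0.546. KO 2 over KO 1 had a median of 0.375. The same ratios over all genes, with 0.5 CPM added, had medians between 0.996 and 1.00.

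What was high in WT 1 was chiefly this set. With 0.5 CPM added, 98 of the 102 members were more than 2-fold higher in WT 1 than in WT 2, as were 156 of 13733 genes in all, or 1.14%. The other genes past that fold were 15 of 54 microRNA genes, 14 of 65 histone genes, 5 of 7 other structured RNAs, 3 of 73 tested hosts and 21 of the 13432 remaining genes. The ranking of the members hardly differed between libraries: Spearman's rho over 109 members lay between 0.952 (KO 2 and WT 1) and 0.989 (KO 1 and WT 2), as a description across genes that share libraries.

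Among box C/D RNAs, Snord22 and Snord34 had the highest means per length, 10632 and 10519 RPKM (reads scaled to transcript length and to mapped reads). Snord22 led only in WT 1, with 34001 RPKM beside 20899 RPKM for Snord34, and Snord34 had more than Snord22 in the other 3 libraries. Snord22 (U22) is required for the processing of 18S rRNA in Xenopus. It had 1439 and 339 CPM in KO 1 and KO 2, against 10978 and 864 CPM in WT 1 and WT 2. WT 1 was far above the rest and the groups overlapped, since KO 1 exceeded WT 2. The log2 fold change was -2.74 (SE 1.96, edgeR adjusted p = 0.677), and 0.042 without WT 1. Snord22 alone made up 11.4% and 6.30% of the members' reads in KO 1 and KO 2, against 18.8% and 10.8% in WT 1 and WT 2.

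The 4 RNAs in introns of Rpl13a, a ribosomal protein gene, differed in how far WT 1 stood out. Snord32a, Snord33 and Snord35a are known from Chinese hamster ovary cells as mediators of lipotoxic stress. Snord34 had 1508 and 1039 CPM in KO 1 and KO 2, against 3535 and 885 CPM in WT 1 and WT 2. Snord35a had 635 and 412 CPM in KO 1 and KO 2, against 5897 and 603 CPM in WT 1 and WT 2. WT 1 was highest for both, while WT 2 lay below both KO libraries for Snord34 and between them for Snord35a. Snord32a had 861 and 354 CPM in KO 1 and KO 2, against 2135 and 382 CPM in WT 1 and WT 2. Snord33 had 188 and 66.6 CPM in KO 1 and KO 2, against 1344 and 154 CPM in WT 1 and WT 2. WT 1 over WT 2 thus ranged from 3.99 for Snord34 and 5.59 for Snord32a to 8.72 for Snord33 and 9.77 for Snord35a. The log2 fold changes were -0.80 (SE 0.89) for Snord34, -1.05 (SE 1.27) for Snord32a, -2.55 (SE 1.63) for Snord33 and -2.63 (SE 1.54) for Snord35a, with edgeR adjusted p of 0.628 or more. Without WT 1 they were 0.53, 0.67, -0.27 and -0.20 in the same order.

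Other abundant box C/D RNAs, which guide methylation of ribosomal RNA, gave like values. Snord104 had 669 and 438 CPM in KO 1 and KO 2, against 3597 and 364 CPM in WT 1 and WT 2. Snord55 had 907 and 340 CPM in KO 1 and KO 2, against 2168 and 484 CPM in WT 1 and WT 2. Snord35b had 406 and 121 CPM in KO 1 and KO 2, against 2690 and 237 CPM in WT 1 and WT 2. WT 1 was highest for all 3, and WT 2 was never above KO 1. Snord100 of Rps12 had a smaller excess in WT 1, with 620 and 263 CPM in KO 1 and KO 2, against 1663 and 536 CPM in WT 1 and WT 2. The 4 log2 fold changes lay between -2.47 (SE 1.81) for Snord35b and -1.09 (SE 1.18) for Snord55, and without WT 1 between -0.28 for Snord100 and 0.61 for Snord104.

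Snord82 was the only tested member with a positive fold change. It had 712 and 527 CPM in KO 1 and KO 2, against 640 and 421 CPM in WT 1 and WT 2, so the groups overlapped and WT 1 was not the highest. The log2 fold change was 0.22 (SE 0.23, edgeR adjusted p = 0.730). It was 0.56 without WT 1, -0.044 without WT 2 and -0.015 without KO 1. Its host Ncl encodes nucleolin, a nucleolar protein of ribosome assembly, and had 217 and 225 CPM in KO 1 and KO 2, against 150 and 175 CPM in WT 1 and WT 2. Snora75, in another intron of Ncl, was scarce. It had 0.253 and 0.0969 CPM in KO 1 and KO 2, against 3.88 and 0.333 CPM in WT 1 and WT 2, with a log2 fold change of -3.57 (SE 1.60, edgeR adjusted p = 0.538). Without WT 1 Snora75 did not pass the filter on low counts. Per length, Snord82 had a mean of 3405 RPKM over the 4 libraries and Snora75 had 3.86 RPKM, so that 2 RNAs of 1 host differed widely in level and in the excess of WT 1.

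The members with the smallest unadjusted p were scarce. Snord72 had 1.81 and 1.098 CPM in KO 1 and KO 2, against 9.71 and 2.67 CPM in WT 1 and WT 2. Snord53 had 1.48 and 0.840 CPM in KO 1 and KO 2, against 6.34 and 1.84 CPM in WT 1 and WT 2. In both, the KO libraries lay below the WT libraries, with WT 1 the highest. The log2 fold changes were -2.09 (SE 0.73, edgeR adjusted p = 0.494) for Snord72 and -1.81 (SE 0.66, edgeR adjusted p = 0.486) for Snord53, and without WT 1 -0.87 and -0.67. Snord11 had 1.19 and 1.03 CPM in KO 1 and KO 2, against 9.96 and 1.78 CPM in WT 1 and WT 2. Snord45b, named for its short length, had 0.290 and 0.258 CPM in KO 1 and KO 2, against 3.13 and 0.333 CPM in WT 1 and WT 2. Both had the same order of groups. Snord47, named by role and not scarce, comes from an intron of the noncoding gene Gas5. It had 61.8 and 39.2 CPM in KO 1 and KO 2, against 220 and 66.0 CPM in WT 1 and WT 2.

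Among box H/ACA RNAs, Snora26 had 715 and 106 CPM in KO 1 and KO 2, against 2373 and 425 CPM in WT 1 and WT 2. Snora7a, in an intron of the ribosomal protein gene Rpl32, had 501 and 109 CPM in KO 1 and KO 2, against 1419 and 315 CPM in WT 1 and WT 2. For both, WT 1 was the highest, KO 2 the lowest, and KO 1 lay above WT 2. The log2 fold changes were -1.77 (SE 1.71) for Snora26 and -1.51 (SE 1.44) for Snora7a, and without WT 1 -0.048 and -0.044. Snora17, from the noncoding host Snhg7, had 121 and 43.8 CPM in KO 1 and KO 2, against 1196 and 136 CPM in WT 1 and WT 2, and Snora30 had 78.7 and 21.9 CPM in KO 1 and KO 2, against 263 and 89.2 CPM in WT 1 and WT 2. In these both KO libraries lay below both WT libraries, with log2 fold changes of -3.02 (SE 1.66) for Snora17 and -1.81 (SE 1.14) for Snora30, and without WT 1 of -0.72 and -0.83.

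Of the 8 most abundant box H/ACA RNAs, WT 1 stood out most for Snora31 of the host Tpt1. It had 34.1 and 18.2 CPM in KO 1 and KO 2, against 388 and 18.5 CPM in WT 1 and WT 2, with WT 2 close to KO 2. Snora64 (U64), from the ribosomal protein gene Rps2, had 35.0 and 10.6 CPM in KO 1 and KO 2, against 395 and 20.0 CPM in WT 1 and WT 2. Snora74a (U19), from the noncoding host Snhg4, had 19.3 and 9.27 CPM in KO 1 and KO 2, against 270 and 15.0 CPM in WT 1 and WT 2. KO 1 exceeded WT 2 in all 3. Snora15, Snora28 and Snora52 had the same order of libraries, and their levels in WT 1 were 14.6, 11.3 and 13.2 times those in WT 2.

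**Figure D2:**
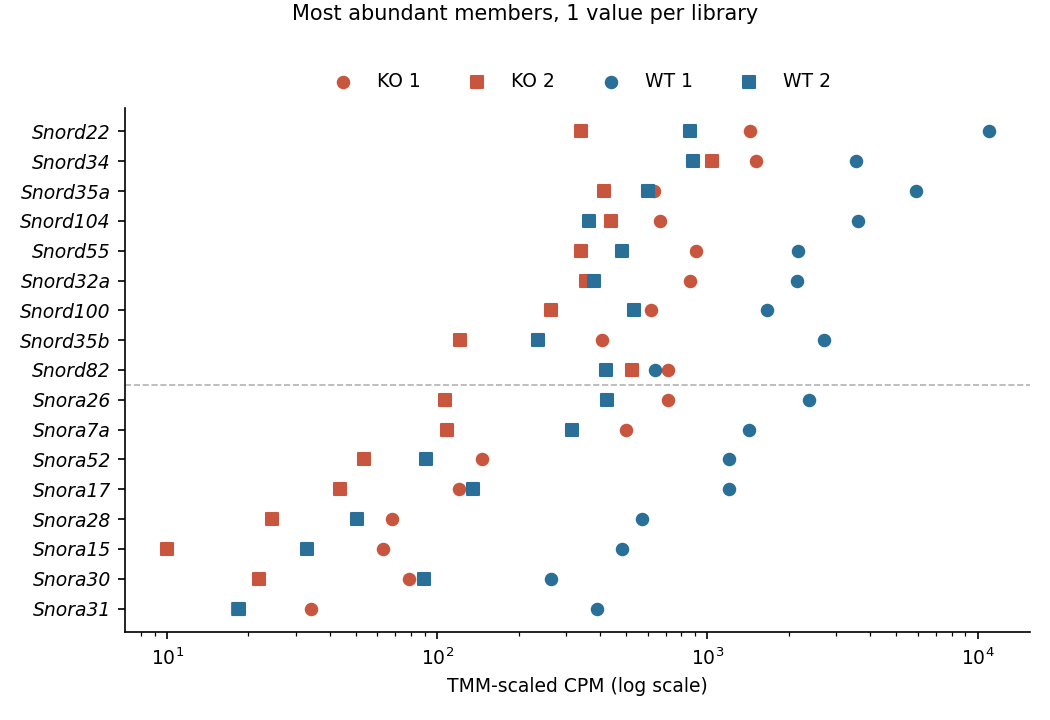
TMM-scaled CPM (log scale) of the box C/D RNAs of highest mean RPKM with Snord82 (above the dashed line) and the box H/ACA RNAs of highest mean RPKM (below it), 1 point per library, with KO in red and WT in blue, circles for replicate 1 and squares for replicate 2. WT 1 is the rightmost point for every RNA shown except Snord82, whose 4 points lie between 421 and 712 CPM.

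The Cajal body RNAs ranged from levels of a like order in all libraries to levels high in WT 1 alone. Scarna13, from the noncoding host Snhg10, had 158 and 74.1 CPM in KO 1 and KO 2, against 233 and 148 CPM in WT 1 and WT 2, a log2 fold change of -0.71 (SE 0.52), and -0.35 without WT 1. Scarna10 (U85), which guides modification of the U5 spliceosomal RNA, had 181 and 41.3 CPM in KO 1 and KO 2, against 746 and 123 CPM in WT 1 and WT 2. KO 1 exceeded WT 2 in both. Scarna9, a guide for U2, had 0.760 and 0.646 CPM in KO 1 and KO 2, against 15.4 and 0.725 CPM in WT 1 and WT 2, where only WT 1 stood out. Scarna2, another guide for U2, had 11.4 and 4.30 CPM in KO 1 and KO 2, against 17.98 and 7.35 CPM in WT 1 and WT 2, with a log2 fold change of -0.69 (SE 0.78), and 0.097 without WT 1. The tables list Scarna2 with 61 nt, Scarna10 with 71 nt and Scarna9 with 42 nt, where GENCODE gives 414, 325 and 70 nt, so their reads were counted over part of the RNA. The pair Scarna3a and Scarna3b, 86.3% identical, had WT 1 over WT 2 of 4.01 and 11.2. Among box C/D RNAs, Snord1b and Snord1c were 97.3% identical, and Snord88a and Snord88c 94.4%. Reads of RNAs that close may be lost or shared under the mapping-quality filter.

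Over the classes, the median of WT 1 over WT 2 was 8.82 for box C/D, 11.3 for box H/ACA and 5.63 for Cajal body RNAs. KO 2 over KO 1 had medians of 0.446 for box C/D, 0.303 for box H/ACA and 0.375 for Cajal body RNAs. The median log2 fold change of box C/D minus that of box H/ACA was 0.38 with all libraries. It was -0.18 without WT 1, -0.0055 without KO 2, 0.34 without WT 2 and 0.72 without KO 1. The members tested changed, with 98 without WT 1 and 108 in each of the other fits. Over the main fit's 60 box C/D and 33 box H/ACA RNAs, the medians without KO 2 were -1.90 and -1.92. Between libraries of 1 genotype, the median log2 CPM of box C/D minus that of box H/ACA had a pooled SD of 0.418. The 0.38 did not exceed that SD. It is a difference of medians of fitted fold changes, an unlike measure, so the SD is only a rough scale for it.

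Class and length hardly overlapped, so the classes could be set side by side at few lengths. The listed median was 68 nt for box C/D, 119 nt for box H/ACA and 118 nt for Cajal body RNAs with reads. Under 80 nt, 45 tested box C/D RNAs had a median log2 fold change of -2.09 and a median WT 1 over WT 2 of 8.04, beside 1 box H/ACA RNA with -1.62 and 3.004. From 80 to 99 nt, 10 box C/D RNAs had -2.56 and 9.66, and 2 box H/ACA RNAs had -2.41 and 11.7. From 100 nt to under 130 nt, 22 box H/ACA RNAs had -2.75 and 11.5, and the 1 box C/D RNA, Snord22, had -2.74 and 12.7. From 130 nt to under 150 nt, 2 box C/D RNAs had -2.70 and 10.9, and 4 box H/ACA RNAs had -2.78 and 11.3. At 150 nt or more, 2 box C/D RNAs, Snord17 and Snord123, had -1.11 and 2.15, and 4 box H/ACA RNAs had -2.32 and 14.4. Snord123, listed with 6161 nt, is not measured at snoRNA size and enters each box C/D median of this bin. Snord17 alone had -1.59 and 3.22. The fold changes of all bins rest on WT 1. Without it the medians of box C/D by rising length were 0.057, -0.015, 0.042, -0.14 and -0.55, and those of box H/ACA were -0.62, 0.25, 0.15, -0.34 and 0.27. Within box C/D, WT 1 over WT 2 (log2, with 0.5 CPM added) correlated with listed length at a Spearman's rho of 0.39 over 59 RNAs, and with GENCODE length at 0.061. Within box H/ACA the rho values were 0.23 and 0.30 over 33 RNAs. KO 2 over KO 1 had a rho with listed length of -0.43 over all 101 RNAs of snoRNA size, -0.30 within box C/D and 0.073 within box H/ACA. These are descriptions across RNAs that share libraries.

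**Figure D3:**
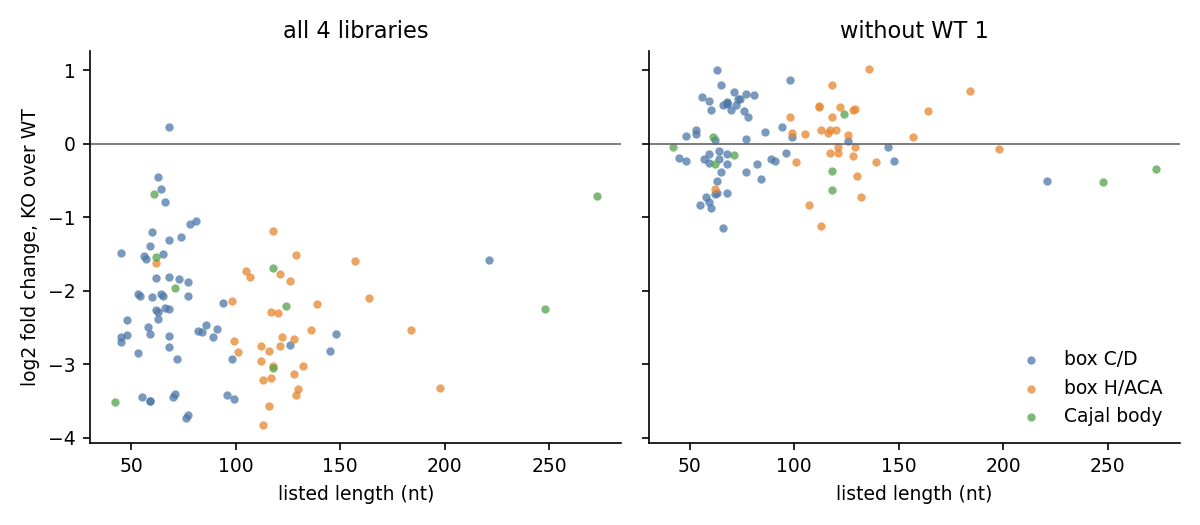
Fitted log2 fold change (KO over WT) against listed length for tested members, with all 4 libraries (left) and without WT 1 (right), coloured by class. Snord123, listed with 6161 nt, is left out. Nearly all points lie below 0 on the left, with medians of -2.27 for box C/D and -2.66 for box H/ACA, and around 0 on the right, with medians of -0.049 and 0.14.

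The listed lengths were mostly shorter than the RNAs. Of 109 members with reads and a GENCODE sequence, 90 were listed shorter, 12 equal and 7 longer, with a median difference of 12 nt. Among the shortest with at least 100 reads, Snord93 was listed with 45 nt (71 nt in GENCODE) and had 6.12 and 4.30 CPM in KO 1 and KO 2, against 61.5 and 5.98 CPM in WT 1 and WT 2. Snord17, the longest box C/D RNA of snoRNA size with 221 nt, had 74.6 and 33.2 CPM in KO 1 and KO 2, against 247 and 76.7 CPM in WT 1 and WT 2. Snord123 was listed over 6161 nt where GENCODE gives 71 nt, so its row does not measure an RNA of snoRNA size.

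Most members lay inside a known intron of the junction tables (mm9). Of the 142, 108 did so, 67 of them box C/D, 34 box H/ACA and 7 Cajal body RNAs, in 76 distinct hosts, with 6 Snord116 symbols without reads among the box C/D RNAs. Ribosomal protein genes (Rpl or Rps) hosted 31 and the noncoding Snhg genes and Gas5 hosted 12. Place in the intron is given by class, as a description. Box C/D RNAs lay a median of 93 nt upstream of the 3′ splice site (quartiles 75.5 and 328 nt), and 41 of 67, or 61.2%, lay 60 to 110 nt from it. Box H/ACA RNAs lay a median of 175.5 nt from it (quartiles 81.25 and 557.25 nt), and 9 of 34, or 26.5%, lay in that window. Snord22 lay 75 nt from the 3′ splice site of its Snhg1 intron, and the 4 RNAs of Rpl13a 65 to 109 nt. Ends that are listed short lengthen these distances. Among RNAs listed within 5 nt of the GENCODE length, 14 of 19 box C/D and 1 of 5 box H/ACA RNAs lay in the window.

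**Figure D4:**
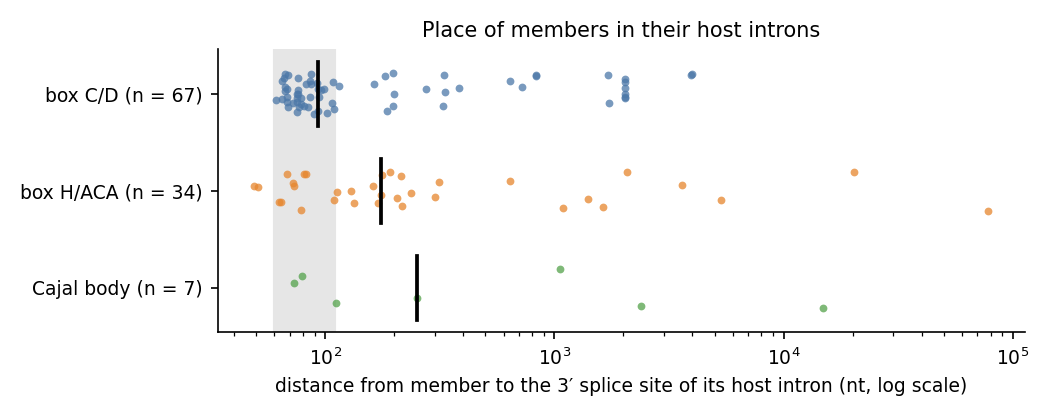
Distance (nt, log scale) from each member to the 3′ splice site of the shortest known intron that holds it, 1 point per symbol, by class, with a black bar at the median and grey shading from 60 to 110 nt. Box C/D RNAs crowd into the shaded window, with a median of 93 nt, and box H/ACA RNAs spread wider, with a median of 175.5 nt.

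The hosts had no such shift. The 73 tested hosts had a median log2 fold change of -0.053, with 44 negative, against 48.9% negative among all genes. Without WT 1 the median was -0.041, with 42 negative. Their median of WT 1 over WT 2 was 1.02. Some host rows, such as those of Rps12 and Rpl12, were near the floor though their introns had spliced reads, so they measure the host poorly. Rps12 had 0.290 and 0.323 CPM in KO 1 and KO 2, against 0.334 and 0.392 CPM in WT 1 and WT 2. Its Snora33 intron had 174 and 183 junction reads in KO 1 and KO 2, against 322 and 295 in WT 1 and WT 2. Spliced reads across the junctions that remove the introns holding members came to 252 and 265 RPM (reads scaled to the mapped reads of the library) in KO 1 and KO 2, against 301 and 282 RPM in WT 1 and WT 2. With all libraries, the member's log2 fold change was the lower in all 90 pairs of a tested member and a tested host. The rho between members and hosts was -0.11 across pairs, some of which share a host. Pairs were not counted without WT 1, where 49 members had a negative and 49 a positive log2 fold change. Snhg1, the host of Snord22, had 36.9 and 52.3 CPM in KO 1 and KO 2, against 34.0 and 44.0 CPM in WT 1 and WT 2. Rpl13a had 148.9 and 191 CPM in KO 1 and KO 2, against 281 and 200 CPM in WT 1 and WT 2, a log2 fold change of -0.50 (SE 0.19), and -0.23 without WT 1.

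Gas5, Rabggtb and 1810032O08Rik, chosen after their values were seen, were the 3 hosts whose rows stood more than 2-fold higher in WT 1 than in WT 2. Gas5 had 5323 and 3112 CPM in KO 1 and KO 2, against 18124 and 3438 CPM in WT 1 and WT 2. Rabggtb, the host of Snord45b, had 64.2 and 53.5 CPM in KO 1 and KO 2, against 509 and 63.4 CPM in WT 1 and WT 2. Spliced reads of these hosts, not scaled to library size, did not have that excess. The Snord47 intron of Gas5 had 43 and 91 junction reads in KO 1 and KO 2, against 60 and 63 in WT 1 and WT 2. For the Snord45b intron of Rabggtb they were 2 and 10, against 19 and 18. The Snord1b intron of 1810032O08Rik had 7 and 15, against 22 and 33. Whether reads of the intronic RNAs were counted in the rows of these hosts was not tested. The 4 RNAs of Snhg12, also chosen after their values were seen, spread widely, with WT 1 over WT 2 of 22.6 for Snora16a, 8.04 for Snord99, 7.97 for Snora44 and 3.004 for Snora61, while Snhg12 itself had 7.71 and 11.3 CPM in KO 1 and KO 2, against 9.91 and 8.49 CPM in WT 1 and WT 2.

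**Figure D5:**
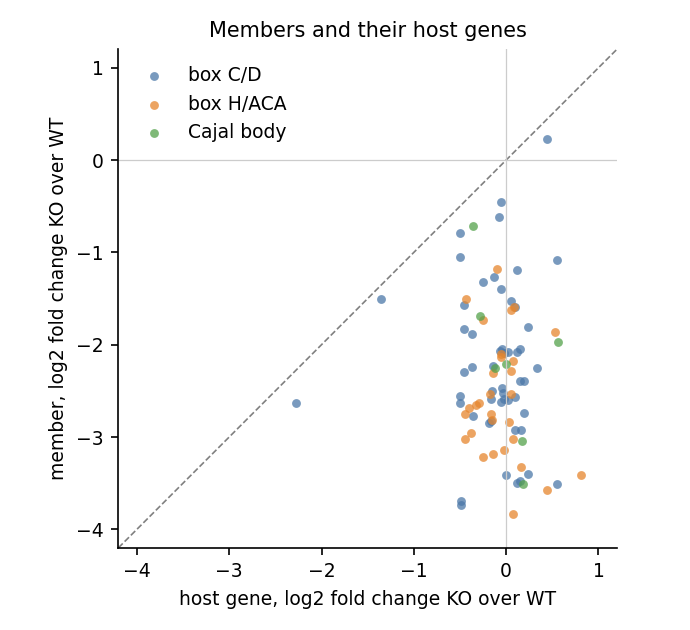
Log2 fold change (KO over WT) of each of 90 tested members against that of its host gene, coloured by class, with the dashed line where both are equal. All points lie below the line, and hosts centre on -0.053 while members spread down to -3.83.

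The proteins that build, carry and trim these RNAs did not pass the test. Of 36 listed, 35 were in the tables and tested, 13 had a negative log2 fold change, 0 were called by edgeR and 3 had an unadjusted p under 0.05, against 9.9% of all genes. Those were Ncl (0.45, SE 0.13), Tcof1, a nucleolar factor of ribosomal RNA transcription (0.41, SE 0.12), and Xrn2, a nuclear exonuclease (0.44, SE 0.12), on the log2 scale, and without WT 1 they had 0.35, 0.38 and 0.43. The methyltransferase Fbl had 5.25 and 8.33 CPM in KO 1 and KO 2, against 6.86 and 7.82 CPM in WT 1 and WT 2. The pseudouridine synthase Dkc1 had 89.8 and 124 CPM in KO 1 and KO 2, against 102 and 109 CPM in WT 1 and WT 2. In both, the groups overlapped. Medians of the lists were -0.024 for box C/D proteins, -0.10 for box H/ACA proteins, 0.16 for assembly and transport, 0.022 for Cajal body and cap factors and -0.025 for trimming and decay. Without WT 1 they were 0.088, -0.092, 0.15, 0.0036 and -0.028 in the same order.

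Other structured RNAs had the members' order of libraries in part. Of 14 listed, 9 were in the tables and 7 were tested. All 7 had a negative log2 fold change, with a median of -2.03, and -0.17 without WT 1. Rmrp, the RNA of RNase MRP, which cuts ribosomal RNA precursors, had 2706 and 1223 CPM in KO 1 and KO 2, against 9128 and 2425 CPM in WT 1 and WT 2. Rnu12, the U12 RNA of the minor spliceosome, had 1.30 and 0.355 CPM in KO 1 and KO 2, against 27.0 and 0.764 CPM in WT 1 and WT 2. Terc, the telomerase RNA, which ends in a box H/ACA domain, had 8.51 and 5.94 CPM in KO 1 and KO 2, against 21.4 and 10.8 CPM in WT 1 and WT 2. KO lay below WT in both libraries for Terc, and WT 1 was the highest for all 3. The log2 fold change of Terc was -1.16 (SE 0.37, edgeR adjusted p = 0.474), and -0.58 without WT 1.

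Markers of other cell types did not have the order of libraries seen in the members, and their part in the result was not tested. Erythroid markers, 5 of 8 in the tables, summed to 460 and 93.2 CPM in KO 1 and KO 2, against 146 and 128 CPM in WT 1 and WT 2. B cell markers summed to 38.8 and 31.5 CPM in KO 1 and KO 2, against 35.8 and 36.1 CPM in WT 1 and WT 2. Myeloid markers summed to 146 and 146 CPM in KO 1 and KO 2, against 131 and 128 CPM in WT 1 and WT 2, and thymic stroma markers to 27.3 and 59.7 CPM in KO 1 and KO 2, against 33.8 and 30.3 CPM in WT 1 and WT 2. No marker in the tables was at 0 in any library, and none of the 4 sums was highest in WT 1.

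The remaining members had few or no reads. No read was found for 33 symbols, namely 30 of the imprinted Snord116 cluster, known for its expression in brain, at 10 positions, with Snora19_dup1, Snora19_dup2 and Snora35. A count of 0 allows up to 3 reads, or 0.109 and 0.105 CPM in KO 1 and KO 2, against 0.0718 and 0.0582 CPM in WT 1 and WT 2. Near-identical copies can also lose reads to the mapping-quality filter, so these zeros do not show absence. A further 7 had reads and did not pass the filter on low counts. Of these Snord64, next to the Snord116 cluster, had 1 read, in WT 1. Snora20 had 7 and 0 reads in KO 1 and KO 2, against 105 and 5 reads in WT 1 and WT 2. Snord23 had 7 and 3 reads in KO 1 and KO 2, against 181 and 14 in WT 1 and WT 2. Snord1c, Snord45c, Snord58b and Snord90 also had most of their reads in WT 1.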

How the data were processed

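Total thymocyte RNA of 2 KO and 2 WT mice was sequenced, 1 library per mouse. The authors deposited raw read counts per RefSeq transcript, the coverage signal (reads per nucleotide) and RPKM, and a table of junction read counts. Per the file headers, the reads counted were primary alignments of mapping quality 10 or more. The genome build is mm9, per the submitters' processing notes. No source used here names the aligner or says whether strand was used. Deposited RPKM equalled reads over length and mapped reads, and RPKM and coverage entered no test.

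Counts of 1 row per symbol were tested over all genes with edgeR 4.0.16 (R 4.3.3), with TMM scaling, a filter on low counts by group, a robust quasi-likelihood fit and Benjamini-Hochberg adjustment. SE is the log2 fold change over the root of the F statistic. Replicates are separate mice, by the labels' titles. DESeq2 1.42.0, limma-voom (limma 3.58.1), other scalings, no filter, summed rows, a replicate block and leaving out each library were alternatives. Sequences were matched to GENCODE M21 by accession (104) or symbol (6), and hosts are the genes of the shortest same-strand known junction around a member.

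Members and lists were chosen with earlier results of these data known. Named members were the 5 with a negative fold change and the smallest p, Snord82 as the only positive one, the 8 highest box C/D and box H/ACA RNAs by RPKM, all Cajal body RNAs, members by role and host, and the 3 longest and 3 shortest. Of these, Scarna17, which was among the 5 of smallest p, and Scarna6, Scarna8 and Snora65 have no values above. Snhg12-hosted RNAs, 3 hosts and untested members were added after values were seen, as was the older symbol Sip1 for Gemin2.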

Additional observations from a re-analysis of the deposited data

How the results depend on the processing

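The direction of the members did not depend on scaling: 101 of 102 were negative under each of the 4 scalings and under DESeq2, limma-voom, the replicate block, summed transcript rows and a fit without robust moderation. Scaling by summed reads alone moved the median of all genes to 0.12 on the log2 scale, and that of the members to -2.22. The calls did depend on the tool. edgeR called 1 gene of all tested. DESeq2 called 113, no filter on low counts 62 and the replicate block 121, while upper-quartile scaling, no robust moderation, limma-voom and summed transcript rows called 0. Leaving out 1 library gave 2 to 427 genes. Of the members, DESeq2 called 2 (Snord72 and Snora75), the replicate block 24, against 0.502% of all genes lower, and leaving out 1 library 0 to 22. Members at an unadjusted p under 0.05 numbered 2 in the main fit, 26 with DESeq2, 43 without robust moderation and 53 with the replicate block. Same-numbered libraries deviated together with a correlation of 0.259 over 13733 genes. With only 2 pairs and no stated meaning of the numbers, these libraries were not taken as pairs. Calls of fits with 1 library left out rest on 1 mouse in a group, so no conclusion is drawn from them. Leaving out 1 library moved the median log2 fold change, taken over the members tested in each fit. It lay between -3.23 and -0.049 for box C/D and between -3.71 and 0.14 for box H/ACA. Their difference lay between -0.18 and 0.72.

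Of 42 named members, 15 changed sign without WT 1, and Snord82 did without WT 2 (-0.044) and without KO 1 (-0.015); the cause was not tested. Their ranges with 1 library left out were -4.13 to 0.042 (Snord22), -1.47 to 0.53 (Snord34), -1.84 to 0.67 (Snord32a), -3.60 to 0.16 (Snord35b), -2.70 to 0.61 (Snord104), -1.97 to 0.37 (Snord55), -0.044 to 0.56 (Snord82), -3.59 to 0.14 (Snora52), -3.89 to 0.50 (Snora31), -4.70 to 0.15 (Snora15), -4.29 to 0.19 (Snora64), -2.20 to 0.80 (Snora65), -1.56 to 0.097 (Scarna2), -3.57 to 0.40 (Scarna3b), -4.11 to 1.02 (Snora16a) and -2.36 to 0.64 (Snord99). With 2 libraries per genotype and WT 1 far from WT 2, differences of several fold did not pass the test, so these data do not show whether the members' levels differ between genotypes.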
